A study of Mus musculus with 6 samples.

Results

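The genes that hold mouse embryonic stem (ES) cells in the pluripotent state, and those that mark their step towards differentiation, were examined in Morc3 knock-out (ko) cells. They comprised 44 genes of 24054 gene rows in the count files. They were chosen by name for their known roles in the pluripotency network, with earlier results of these data known. The genes fell into 8 roles: core factors, naive transcription factors, genes enriched in ES cells, RNA-binding and RNA-regulatory genes, formative genes, and genes of FGF, Nodal and LIF signalling. RNA-seq was available for 6 libraries, and 43 of the 44 genes had enough reads to be tested. Morc3 encodes a nuclear ATPase that the study examined for its part in silencing endogenous retroviruses. The ko group consisted of the 3 cell lines KO27-1, KO27-2 and KO27-3, here clones 1, 2 and 3, each a single clone in which Cas9 had been used to disrupt Morc3 in the wild-type line. The wild-type group consisted of 3 cultures of the line WT26, here p42, p43 and p56 after their titles, and the meaning of the letter p was not given in the labels. All cells were grown without feeder cells on gelatin in medium with serum and LIF. Per the study's methods, ko lines were made by transfection with a Cas9 plasmid and a puromycin-resistance plasmid. A short puromycin selection followed before clones were isolated. No other treatment or allele was given for either group. Because the wild-type libraries came from 1 line and the ko libraries from clones of that line, p-values measure the spread between these cultures. For the same reason an effect of transfection, selection or cloning cannot be told apart from an effect of the Morc3 knock-out.

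In ES cells the transcription factors Oct4 (encoded by Pou5f1), Sox2 and Nanog bind together at enhancers and keep the genome ready to form every tissue of the embryo. Naive factors such as Klf2, Klf4, Esrrb and Tfcp2l1 secure this state. Some of them, among them Klf4 and Tfcp2l1, are kept active by the cytokine LIF, which acts through its receptor and Stat3. Fgf4, made by the ES cells themselves, acts in the opposite direction: through Fgfr1 and the kinase Erk it induces ETS-family factors and feedback inhibitors, and it readies cells for the formative state, which is marked by Otx2, Pou3f1, Zic2 and Fgf5. Nodal, a ligand of the TGF-beta family, and its inhibitors Lefty1 and Lefty2 act in the same cells.

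Of the 44 genes, Etv5 passed the test. Etv5 is an ETS-family transcription factor induced by FGF and Erk signalling, and its close relative Etv1, which belongs to a further list of FGF pathway genes, passed as well. Both annotated start regions of Etv5 and the first of the 2 of Etv1 are therefore shown, each from 250 bases before to 50 bases after an annotated start, as given for RefSeq on GRCm38.p6, the assembly that mm10 names. In these sequences capitals mark the ETS core GGAAGT and the CCAAT box CCAAT, each searched on both strands (read as ACTTCC or ATTGG where it lies on the other strand).

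Etv5, first start, minus strand, chr16:22439521-22439820: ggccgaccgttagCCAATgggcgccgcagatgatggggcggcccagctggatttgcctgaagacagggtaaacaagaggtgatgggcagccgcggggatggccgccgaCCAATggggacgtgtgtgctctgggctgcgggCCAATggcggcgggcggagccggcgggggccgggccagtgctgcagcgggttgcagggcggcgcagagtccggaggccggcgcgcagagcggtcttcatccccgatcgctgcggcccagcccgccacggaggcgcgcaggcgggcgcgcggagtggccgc

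Etv5, second start, minus strand, chr16:22438319-22438618: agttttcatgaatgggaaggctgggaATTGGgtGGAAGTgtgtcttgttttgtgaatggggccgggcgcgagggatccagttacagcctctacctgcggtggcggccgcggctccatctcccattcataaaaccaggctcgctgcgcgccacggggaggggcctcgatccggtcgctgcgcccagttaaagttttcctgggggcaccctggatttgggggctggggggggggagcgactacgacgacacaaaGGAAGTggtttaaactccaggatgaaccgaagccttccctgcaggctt

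Etv1, first start, plus strand, chr12:38779832-38780131: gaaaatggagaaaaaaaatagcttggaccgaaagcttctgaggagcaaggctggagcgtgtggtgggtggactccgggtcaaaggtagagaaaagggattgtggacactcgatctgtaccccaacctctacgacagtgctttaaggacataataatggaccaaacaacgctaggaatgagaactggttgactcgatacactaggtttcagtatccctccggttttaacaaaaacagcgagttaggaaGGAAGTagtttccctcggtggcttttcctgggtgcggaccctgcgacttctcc

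The first Etv5 window held 3 CCAAT boxes and no ETS core, and the second held 2 ETS cores and 1 CCAAT box. The first Etv1 window held 1 ETS core, and the second, chr12:38783461-38783760, which is not shown, held neither motif. Over the genes of interest, 28 of 44 had at least 1 window, with 38 windows in all. GGAAGT was found in 7 of these 38 windows (18.4%) and in 23.8% of all 32851 windows. CCAAT was found in 16 of 38 (42.1%) and in 37.4% of all. The octamer ATGCAAAT and the KLF motif GGGTGTGG each occurred in 1 window of Zfp42 (2.63%), against 1.74% and 3.56% of all windows. The STAT motif TTCCNGGAA and the ESRRB motif TCAAGGTCA were in none of the 38 windows and in 1.15% and 0.423% of all. The ETS core and the STAT motif share the letters GGAA, so over all windows a match of either may overlap the other. No such overlap arose in the 38 windows, which held no STAT motif.

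The sense-strand gene counts amounted to 10740618 to 11525164 per ko library and 13619604 to 14123131 for p42 and p43, with 13013286 for p56. Morc3 served as the check of the labels. It reached 77.8, 138 and 135 CPM (read counts put on a common depth with edgeR's TMM factors) in clones 1, 2 and 3 and 277, 272 and 302 CPM in p42, p43 and p56 (edgeR log2 fold change -1.28, SE 0.16, adjusted p 8.4e-04; called under 15 of 16 alternative settings, with an adjusted p of 0.0184 in the robust fit). Genes with an adjusted p (Benjamini-Hochberg, over 12222 tested genes) under 0.01 are called below. This applied to 156 genes, or 1.28%, of which 105 were higher in ko (0.859%) and 51 lower (0.417%). DESeq2 called 1.79% and limma-voom 1.22% of the genes they tested. The culture p56 stood apart on chromosome 14: its CPM divided by the mean of p42 and p43 had a median of 1.28 over 422 genes of that chromosome, against 0.998 over all tested genes. Among the genes of interest, Otx2, Zic2 and Klf5 lie on chromosome 14. Actb, which encodes a cytoskeletal actin, and the housekeeping enzyme gene Hprt differed by 0.11 and 0.08 on the log2 scale (edgeR adjusted p 0.435 and 0.636).

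Markers of other cell types were near 0 or not called by edgeR, with the exception of Thy1. None of 9 mesoderm markers and none of 9 2-cell-stage markers in the files had enough reads to be tested, and their summed levels were 1.76 to 2.81 CPM in ko and 1.24 to 1.96 CPM in wild type for mesoderm, and 0.0883 to 0.277 CPM in ko and 0 in wild type for the 2-cell stage. Of the trophoblast markers 3 of 9 were tested and none was called by edgeR or limma-voom, while DESeq2 called 1 and 1 had an unadjusted p under 0.05. That gene was Cdh3, the adhesion protein P-cadherin (23.6 ± 4.21 CPM in wild type, 34.5 ± 1.26 CPM in ko, mean ± SD with n = 3 per group here and below, edgeR log2 fold change 0.55, SE 0.12, adjusted p 0.0337). The summed trophoblast level was 37.7 to 40.1 CPM in ko and 23.9 to 30.7 CPM in wild type, with Hand1 at 0 in every library and Cdx2 at 1 to 5 counts. Of the primitive endoderm markers 3 of 10 were tested and none was called by edgeR, DESeq2 or limma-voom, and none had an unadjusted p under 0.05. The log2 fold changes of these 3 tested genes were -0.81, -0.77 and 0.01. Gata4 had the smallest adjusted p (log2 fold change -0.81, edgeR adjusted p 0.395), and the summed level was 107 to 115 CPM in ko and 83.9 to 131 CPM in wild type. Of the neural markers 4 of 9 were tested, none was called by the 3 tools and none had an unadjusted p under 0.05. Sox1 had the smallest adjusted p (log2 fold change -0.48, edgeR adjusted p 0.495), and the summed level was 124 to 135 CPM in ko and 127 to 137 CPM in wild type. Of the fibroblast markers 2 of 9 were tested, and Thy1, a surface glycoprotein, fell from 8.71 ± 0.475 to 4.80 ± 0.255 CPM (log2 fold change -0.86, SE 0.14, adjusted p 0.0064, edgeR). The call of Thy1 was lost without any 1 of clone 1, clone 2, clone 3, p42 or p43 (adjusted p 0.0181 to 0.0584). The summed fibroblast level was 7.15 to 8.32 CPM in ko and 11.8 to 12.7 CPM in wild type, and Dcn, Postn and Fap were at 0 in every library. These shifts were present beside every result below, and their part in them was not tested. In bulk RNA, fewer cells that express a gene and less RNA per cell cannot be told apart.

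The defining markers of ES cells were high in all 6 libraries. On the scale of mean CPM per kb of exon, the only scale on which levels of different genes are compared here, Dppa5a stood highest with 1642 in wild type and 2212 in ko. It was followed by Pou5f1 (833 and 855), Zfp42 (699.6 and 778), the Nodal co-receptor gene Tdgf1 (395 and 371) and Sox2 (310.4 and 302). Nanog and Esrrb had 105 and 60.3 CPM per kb in wild type. The formative genes were at the bottom of the wild-type order, with 4.65 CPM per kb for Otx2, 1.99 for Pou3f1, 0.351 for Zic2 and 0.00933 for Fgf5 in wild type. In ko, Otx2 with 6.45 CPM per kb lay above Fgfr1 (4.60) and Klf5 (5.83). Fgf5, the ligand that marks cells leaving the naive state, had 0, 2 and 1 counts in clones 1, 2 and 3 and 0, 1 and 0 counts in p42, p43 and p56, and was the 1 gene that could not be tested. Together the 44 genes took 1.13% to 1.14% of the sense counts of the ko libraries and 1.06% to 1.08% of those of the wild-type libraries.

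**Figure D1:**
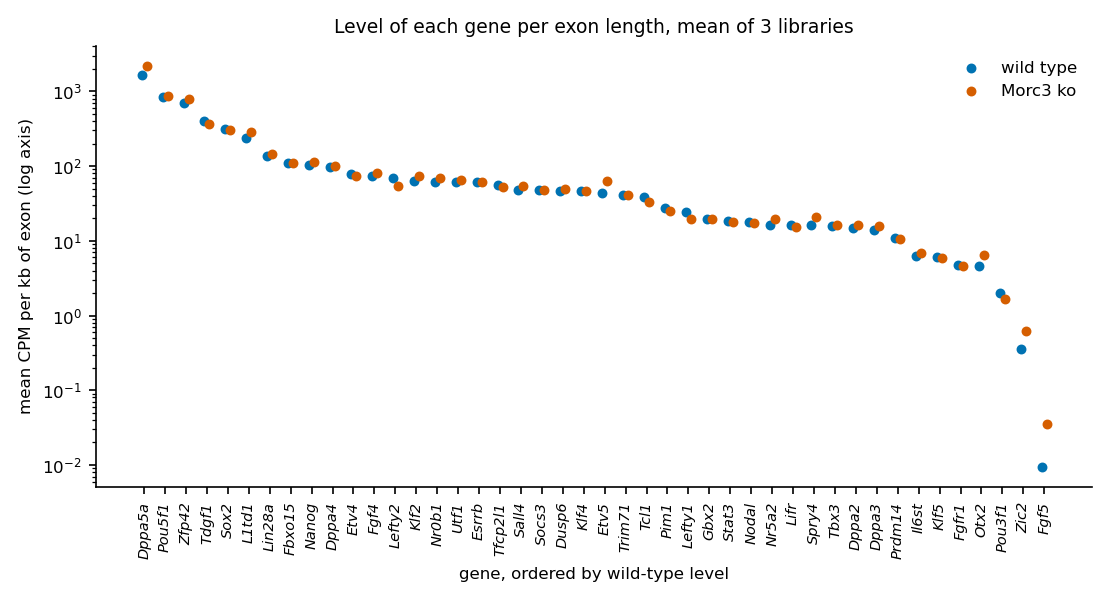
Mean level of each of the 44 genes over 3 libraries per group, in CPM per kb of exon on a log axis, ordered by the wild-type level (blue, wild type; orange, Morc3 ko). Dppa5a, Pou5f1 and Zfp42 stand highest and Pou3f1, Zic2 and Fgf5 lowest in both groups, and Otx2 is next to them in wild type.

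Across the 43 tested genes, 1 was called higher in ko (Etv5) and none lower by edgeR, against 1.28% called among all tested genes. DESeq2 called 2 (Etv5 and Dppa5a) and limma-voom 1 (Etv5). At an unadjusted p under 0.05, 13 of the 43 genes were found, against 14.3% of all tested genes (1746). Of these, 11 were higher in ko, against 6.42% of all genes (785), and 2 were lower, Lefty1 and Lefty2. The groups did not overlap for 11 genes, 10 with all ko clones above all wild-type cultures and 1 below, whereas this was so for 19.9% of all genes (9.67% above and 10.2% below). The same shares of all tested genes stand beside the counts given for each role below. The estimated log2 fold change was above 0 for 25 genes and below 0 for 18, with a median of 0.04, beside a median of -0.00010 over all tested genes. For these genes the median SD between libraries was 0.0669 log2 units in ko and 0.0966 in wild type, against 0.107 and 0.119 for all genes. Neither this comparison nor that of the intervals that follows was matched for expression level, on which both depend. The 95% interval of the fold change lay within 1.5-fold of no change for 37 of 43 genes (86.0%, against 73.1% of all tested genes), and within 25% for 26 (60.5%, against 43.2%). The 6 genes whose interval reached past 1.5-fold were Etv5, Dppa5a, Zic2, Otx2, Pou3f1 and Lefty2.

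**Figure D2:**
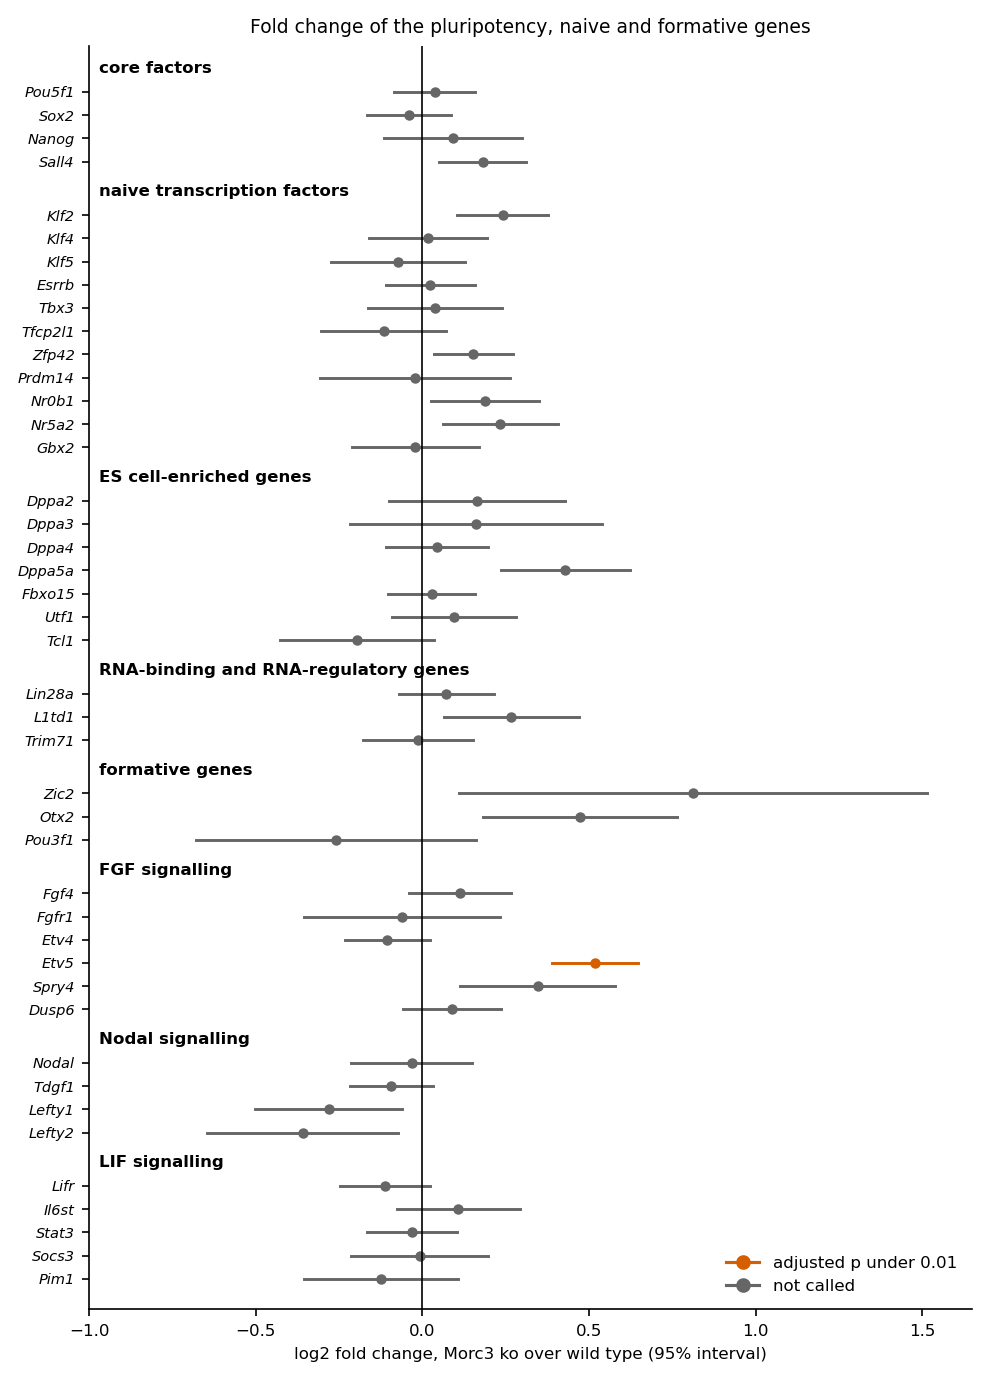
Log2 fold change of Morc3 ko over wild type (point) with its 95% interval (line) for each of the 43 tested genes, grouped by role, from edgeR's fit of 3 ko and 3 wild-type libraries. Etv5 (orange) is the gene with an adjusted p under 0.01, and most other intervals (grey) span 0 and stay within 1.5-fold.

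The core factors were at like levels in both groups. None of the 4 was called by edgeR, DESeq2 or limma-voom, and 1 (Sall4) had an unadjusted p under 0.05. Pou5f1 reached 1118, 1209.9 and 1166 CPM in clones 1, 2 and 3 and 1098, 1162 and 1145 CPM in p42, p43 and p56. Sox2 reached 647, 599 and 617 CPM in the clones and 619, 664 and 632 CPM in wild type. In both genes the groups overlapped, and the 95% interval of the fold change was 0.943 to 1.12 for Pou5f1 and 0.892 to 1.06 for Sox2. Nanog, whose level is known to vary from cell to cell in serum cultures, had 241, 254 and 256 CPM in the clones and 223, 205 and 277 CPM in the cultures. The clones were close together while p56 lay above p42 and p43. The log2 fold change of Nanog was 0.09 (95% interval -0.12 to 0.30, edgeR adjusted p 0.733), and without p56 it was 0.23 (adjusted p 0.0319). Sall4, a zinc-finger factor that acts with Oct4, was counted at 264, 275 and 286 CPM in ko and 248, 246 and 234 CPM in wild type. All clones were above all cultures, by 1.13-fold (edgeR log2 fold change 0.18, SE 0.06, adjusted p 0.1701), which did not reach the threshold.

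The naive transcription factors also stayed under the threshold. None of the 11 was called by edgeR, DESeq2 or limma-voom. An unadjusted p under 0.05 was found for 4, all of them higher in ko and with groups that did not overlap: Klf2, Zfp42, Nr0b1 and Nr5a2. Of all tested genes, 6.42% had such a p in edgeR and were higher in ko. All clones lay above all cultures for 9.67% of all tested genes. Klf2, a Krüppel-like factor, reached 139, 131 and 138 CPM in clones 1, 2 and 3 and 116, 119 and 111 CPM in p42, p43 and p56 (edgeR log2 fold change 0.24, SE 0.06, adjusted p 0.0716). The clones lay 1.18-fold higher in the fit, with a 95% interval of 1.07 to 1.30. The nuclear receptor gene Nr5a2 reached 96.6, 110.3 and 117 CPM in ko and 96.0, 92.4 and 86.6 CPM in wild type, with clone 1 just above p42 (edgeR log2 fold change 0.23, SE 0.08, adjusted p 0.184). Zfp42, which encodes the ES cell marker Rex1, reached 1416, 1526 and 1448 CPM in ko and 1286, 1305 and 1357 CPM in wild type (edgeR log2 fold change 0.15, SE 0.05, adjusted p 0.207). Nr0b1, which encodes the nuclear receptor Dax1, reached 121, 128 and 125 CPM in ko and 114, 116 and 98.2 CPM in wild type (edgeR log2 fold change 0.19, SE 0.07, adjusted p 0.264). In Nr0b1 the lowest culture was p56, and without it the log2 fold change was 0.12 (adjusted p 0.328).

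Among the other naive factors, Esrrb, an orphan nuclear receptor gene, had 345 ± 12.7 CPM in ko and 339 ± 16.0 CPM in wild type, with a 95% interval of the fold change of 0.928 to 1.11. Klf4 had 159, 129 and 133 CPM in the clones and 138, 141 and 137 CPM in the cultures, so that clone 1 alone lay above every wild-type culture and the other clones below. Klf5, on chromosome 14, had 30.3 ± 1.02 and 31.9 ± 3.04 CPM, and its log2 fold change of -0.07 became 0.01 without p56. Tfcp2l1 had 481 ± 16.8 CPM in ko and 521 ± 72.6 CPM in wild type, where p56 stood at 604 CPM. Its log2 fold change of -0.12 became 0.00 without p56. The T-box gene Tbx3 (84.4 ± 5.81 and 82.2 ± 10.1 CPM), the repressor gene Prdm14 (27.4 ± 2.22 and 27.9 ± 5.44 CPM) and the homeobox gene Gbx2 (41.2 ± 2.52 and 41.9 ± 3.51 CPM) had fitted log2 fold changes between -0.02 and 0.04. In Tbx3, Prdm14 and Gbx2, p56 was the highest of the wild-type cultures. Without p56 the log2 fold changes were 0.14 for Tbx3, 0.15 for Prdm14 and 0.04 for Gbx2, so that the estimates of Prdm14 and Gbx2 changed sign, and none was called.

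Of the genes enriched in ES cells, none of 7 was called by edgeR or limma-voom, DESeq2 called 1 (Dppa5a), and the same gene was the only one with an unadjusted p under 0.05. Dppa5a encodes a small RNA-binding protein of the ES cell and germ line. It reached 1370.3, 1389.9 and 1347 CPM in clones 1, 2 and 3 and 1112, 1090.2 and 848 CPM in p42, p43 and p56. The clones lay within a narrow range above all cultures, and p56 lay well below p42 and p43. The log2 fold change was 0.43 (SE 0.09, 95% interval 0.24 to 0.62, edgeR adjusted p 0.0231), and DESeq2 gave an adjusted p of 2.3e-04. Without p56 the log2 fold change was smaller, 0.32, and was called (adjusted p 9.6e-04). Transcripts of 7 other genes share at least 95% identity with Dppa5a over 200 bp or more, so its counts of uniquely mapped reads are uncertain. The chromatin-binding genes Dppa2 (40.1 ± 4.31 CPM in ko, 35.8 ± 5.86 CPM in wild type) and Dppa4 (147 ± 8.75 and 143 ± 8.39 CPM) lie next to each other on chromosome 16. The log2 fold change of Dppa2 was 0.16, and 0.29 without p56 (adjusted p 0.0857). Dppa3, which encodes the oocyte and germ cell protein Stella, was low and spread widely within both groups (13.1 ± 2.99 and 11.7 ± 1.81 CPM). The F-box gene Fbxo15 (227 ± 4.88 and 223 ± 9.51 CPM), the transcriptional cofactor gene Utf1 (79.2 ± 6.95 and 74.1 ± 6.39 CPM) and the Akt coactivator gene Tcl1 (48.5 ± 7.78 and 55.6 ± 2.74 CPM) overlapped between the groups. In Tcl1 the lowest library was clone 3 with 40.2 CPM.

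The genes that regulate RNA in ES cells were Lin28a, which blocks maturation of let-7, L1td1, an RNA-binding protein derived from a LINE-1 open reading frame, and Trim71, a repressor of target mRNAs. None of the 3 was called by edgeR, DESeq2 or limma-voom, and L1td1 had an unadjusted p under 0.05. L1td1 reached 773, 933 and 1024 CPM in the clones and 777, 795 and 696 CPM in the cultures. Clones 2 and 3 lay above every culture, whereas clone 1 lay within the wild-type range (edgeR log2 fold change 0.27, SE 0.09, adjusted p 0.194). Without clone 1 the log2 fold change of L1td1 was 0.38 (adjusted p 0.0327). Lin28a had 508 ± 38.5 CPM in ko and 484 ± 12.7 CPM in wild type, and Trim71 had 378 ± 17.4 and 382 ± 38.4 CPM.

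The formative genes were measured at low levels. None of the 3 tested genes was called by edgeR, DESeq2 or limma-voom, while Otx2 and Zic2 had an unadjusted p under 0.05. Otx2, a homeobox factor of the formative epiblast, reached 19.3, 17.1 and 21.6 CPM in clones 1, 2 and 3 and 11.7, 14.6 and 15.6 CPM in p42, p43 and p56. All clones lay above all cultures, by 1.39-fold in the fit (95% interval 1.13 to 1.70, edgeR log2 fold change 0.47, SE 0.13, adjusted p 0.0988). Without p56 the log2 fold change of Otx2 was 0.56 and it was called (adjusted p 0.0085). Otx2 lies on chromosome 14, where the median log2 fold change over 422 tested genes was -0.24, and -0.09 without p56. Zic2, a zinc-finger factor that takes over enhancers on exit from the naive state, is on the same chromosome. It had 17, 16 and 17 counts in the clones and 8, 13 and 14 counts in the cultures, which corresponds to 1.57, 1.41 and 1.54 and 0.579, 0.910 and 1.08 CPM. The groups did not overlap, but at these counts the 95% interval of the fold change ran from 1.08 to 2.86 (edgeR adjusted p 0.264). The log2 fold change of Zic2 was 0.81, and 1.00 without p56 (adjusted p 0.139). The POU factor gene Pou3f1 (Oct6) went the other way in its estimate, with 7.76, 4.41 and 7.08 CPM in the clones and 7.53, 8.26 and 7.18 CPM in the cultures. Only clone 2 was outside the range of the other libraries by a wide margin (log2 fold change -0.26, 95% interval -0.68 to 0.16, edgeR adjusted p 0.619). Without clone 2 the log2 fold change of Pou3f1 was -0.05.

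FGF signalling held the 1 gene that was called. Of its 6 genes, Etv5 was called by edgeR, DESeq2 and limma-voom, and Etv5 and Spry4 had an unadjusted p under 0.05. The ligand gene Fgf4 had 244 ± 8.12 CPM in ko and 226 ± 19.1 CPM in wild type, with a 95% interval of the fold change of 0.972 to 1.20. The receptor gene Fgfr1 had 24.0 ± 0.687 and 24.97 ± 5.11 CPM, where p56 with 19.1 CPM lay below all other libraries. The log2 fold change of Fgfr1 was -0.06, and -0.22 without p56 (adjusted p 0.197). Neither Fgf4 nor Fgfr1 was called by any of the 3 tools. The target Etv5 (chr16:22381313-22439570, minus strand), whose start regions are printed above, reached 256, 244 and 258 CPM in clones 1, 2 and 3 and 181, 171 and 178 CPM in p42, p43 and p56. All clones were above all cultures, and the libraries of each group lay close together. Etv5 rose from 177 ± 5.17 to 253 ± 7.73 CPM, that is 1.43-fold (95% interval 1.31 to 1.57, edgeR log2 fold change 0.52, SE 0.06, adjusted p 4.1e-04). It was called under each of the 16 alternative settings, with log2 fold changes of 0.49 to 0.54 and adjusted p of 1.2e-10 to 0.0070.

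The other FGF targets did not pass. Etv4, of the same ETS subfamily, reached 172, 183 and 177 CPM in the clones and 194, 189 and 189 CPM in the cultures. All clones were below all cultures, but by a small margin (log2 fold change -0.11, 95% interval -0.23 to 0.02, edgeR adjusted p 0.459). The interval of Etv4 did not reach that of Etv5, though the difference between both genes was not tested. Spry4, a feedback inhibitor of receptor signalling, reached 95.4, 90.7 and 108 CPM in ko and 87.0, 80.0 and 63.9 CPM in wild type. The groups did not overlap and p56 was the lowest library (edgeR log2 fold change 0.35, SE 0.11, adjusted p 0.139). Without p56 the log2 fold change of Spry4 was 0.23 (adjusted p 0.0812). Dusp6, the phosphatase that inactivates Erk, had 139.5 ± 1.87 and 131 ± 9.52 CPM and overlapping groups, with a 95% interval of the fold change of 0.959 to 1.18.

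The surroundings of Etv5 were examined after its result was known. Within 500 kb on either side lay 14 gene rows, of which 9 were tested. None was called by edgeR, DESeq2 or limma-voom. In edgeR 4 had an unadjusted p under 0.05, against 14.3% of all tested genes. These 4 (Tmem41a, Senp2, Igf2bp2 and Fetub) were all higher in ko, as Etv5 was. The log2 fold changes of the 9 genes ran from -0.42 (Ahsg, at 1.06 CPM in wild type) to 0.96 (Fetub), and only those of Ahsg and Tra2b were below 0. The smallest edgeR adjusted p was 0.047, for Igf2bp2, which encodes an mRNA-binding protein. A search for near copies, also chosen after the results were known, found that Etv5 shares 98.6% identity over 1700 of the 3975 bp of its longest transcript with Gm4798, and Etv1 shares 98.2% over 1453 bp with Gm5454. Gm4798 and Gm5454 were not analysed here. Such near-identical or overlapping stretches with another gene were found for 14 of the 44 genes, among them Nanog, Zfp42, Tdgf1, Dppa2, Dppa3 and Dppa4, and their counts are uncertain to that extent.

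**Figure D3:**
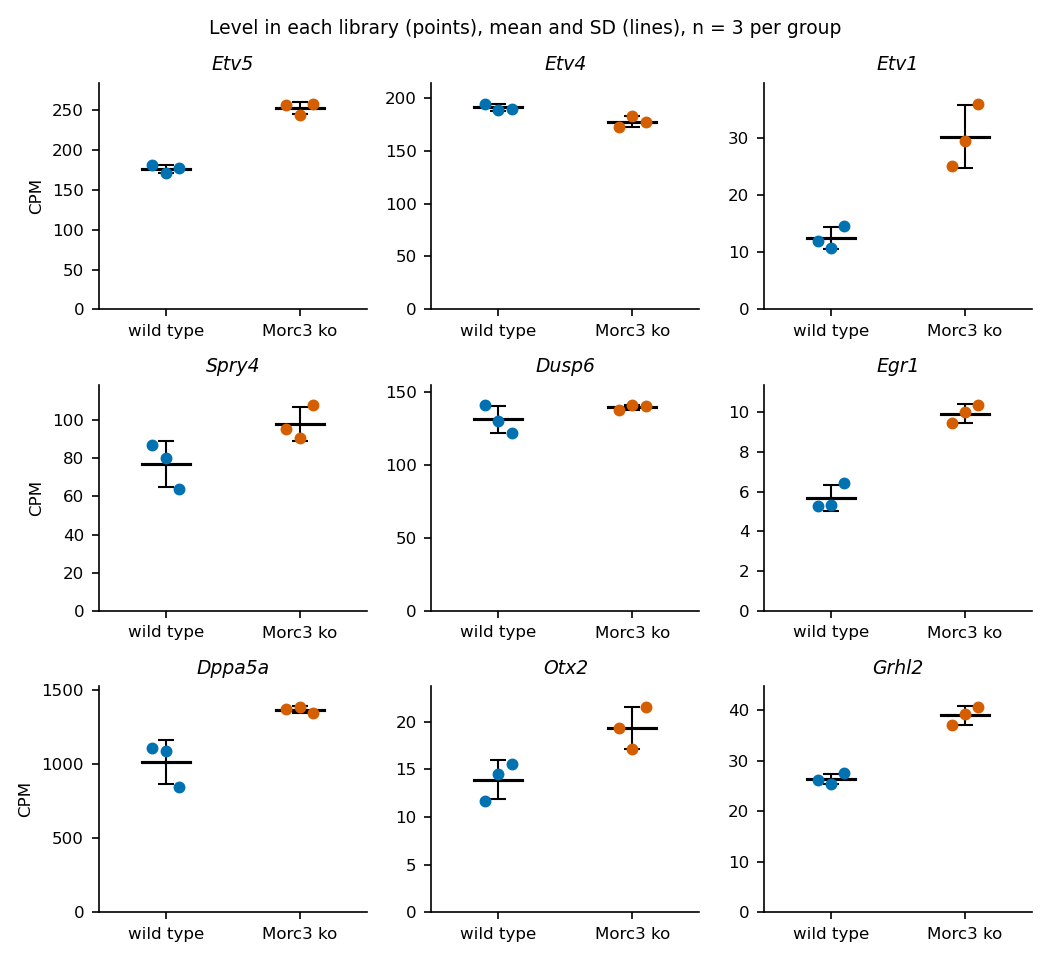
Level in CPM of 9 genes in each library (points; blue, wild type; orange, Morc3 ko), with the mean and SD over 3 libraries (black lines). In Etv5, Etv1, Egr1, Dppa5a, Otx2, Spry4 and Grhl2 all ko points lie above all wild-type points, in Etv4 they lie below, and in Dusp6 the groups overlap.

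Nodal signalling had estimates below 0 for all 4 genes, none of them past the threshold, and that of Nodal itself was 0.02 on the log2 scale without p56. None of the 4 genes was called by edgeR, DESeq2 or limma-voom, and Lefty1 and Lefty2 had an unadjusted p under 0.05. The ligand gene Nodal had 36.1 ± 1.80 CPM in ko and 37.0 ± 2.24 CPM in wild type (95% interval of the fold change 0.861 to 1.11). Its co-receptor gene Tdgf1, also known as Cripto, had 716 ± 14.5 and 764 ± 36.2 CPM (0.860 to 1.02). The Lefty genes encode secreted Nodal inhibitors that are themselves targets of Nodal signalling. Lefty1 reached 29.9, 36.6 and 29.1 CPM in the clones and 38.7, 36.6 and 41.2 CPM in the cultures (edgeR log2 fold change -0.28, SE 0.10, adjusted p 0.207). Lefty2 reached 129.6, 145 and 130.5 CPM in the clones and 154, 145 and 221 CPM in the cultures (edgeR log2 fold change -0.36, SE 0.13, adjusted p 0.217). In both genes clone 2 met p43, and in Lefty2 p56 stood far above the other libraries. Without p56 the log2 fold change of Lefty2 was -0.15 (adjusted p 0.241). Lefty1 and Lefty2 share 97.6% identity over a stretch of their transcripts, so reads from that stretch may be missing from both.

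LIF signalling showed no difference past either threshold. None of its 5 genes was called by edgeR, DESeq2 or limma-voom, and none had an unadjusted p under 0.05. The receptor genes Lifr (157 ± 4.55 CPM in ko, 169.9 ± 7.56 CPM in wild type) and Il6st, which encodes gp130 (74.4 ± 5.92 and 69.0 ± 6.10 CPM), had 95% intervals of the fold change of 0.842 to 1.02 and 0.948 to 1.23. The signal transducer gene Stat3 had 113 ± 4.41 and 115 ± 1.41 CPM (0.891 to 1.07). The Stat3 targets varied between clones more than between groups. Socs3, a feedback inhibitor, reached 143, 111 and 109 CPM in clones 1, 2 and 3 and 118, 124 and 123 CPM in p42, p43 and p56. The kinase gene Pim1 reached 93.9, 69.5 and 70.3 CPM in the clones and 81.2, 89.1 and 84.5 CPM in the cultures. In Socs3, Pim1 and the naive factor Klf4, clone 1 was the highest of all 6 libraries and clones 2 and 3 lay below all cultures.

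The heat map shows all 43 tested genes library by library. p56 was the highest or lowest wild-type culture in 36 of 43 genes (83.7%), beside 82.1% of all tested genes. Clone 1 was the highest or lowest clone in 33 of 43 (76.7%), beside 76.6% of all tested genes. Both shares were close to those of the whole table. Since the highest and the lowest of 3 libraries both count, a library without any peculiarity also reaches a large share. The shares of the other libraries were not counted.

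**Figure D4:**
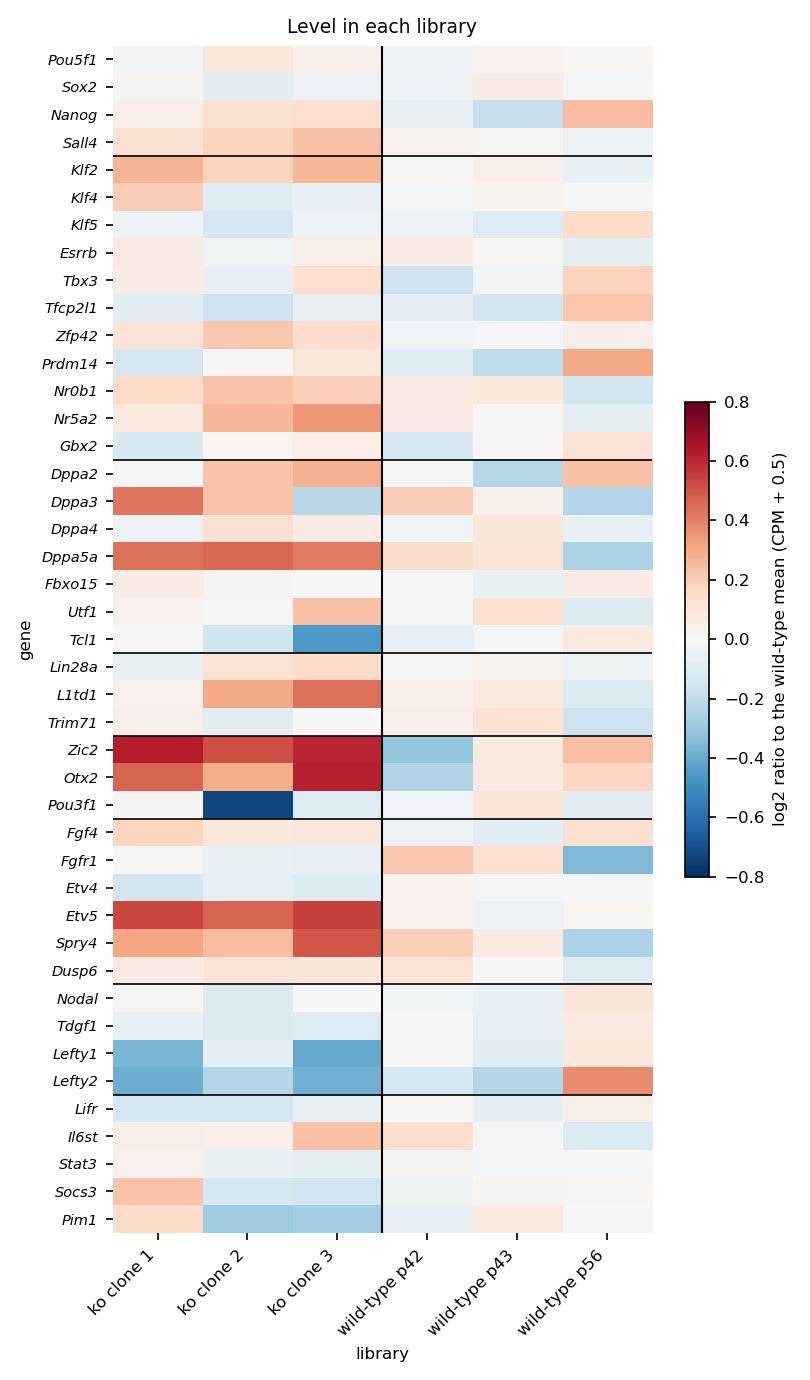
Log2 ratio of each library to the wild-type mean (on CPM + 0.5) for the 43 tested genes, in rows ordered by role, with the ko clones on the left and the wild-type cultures on the right of the vertical line. Etv5, Dppa5a, Otx2 and Zic2 are red in all 3 clones, Lefty2 is reddest in p56, and Pou3f1 is bluest in clone 2.

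The other genes of these pathways were taken from lists made by known role, also with earlier results of these data known. Of 94 such genes 85 were tested, 3 were called higher (Etv1, Egr1 and Grhl2) and none lower, against 0.859% and 0.417% of all tested genes. An unadjusted p under 0.05 was found for 20 of the 85 in edgeR, against 14.3% of all tested genes. Of these 20, 13 were higher in ko, against 6.42% of all tested genes, and 7 were lower. The groups did not overlap for 20 of the 85, against 19.9% of all tested genes. The median log2 fold change was 0.03.

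In the FGF and Erk list, 7 of 25 tested genes had an unadjusted p under 0.05 in edgeR, against 14.3% of all tested genes. Of these, 4 were higher in ko (Etv1, Egr1, Shc1 and Spry1) and 3 were lower. Spry1 reached 19.1, 21.0 and 22.4 CPM in clones 1, 2 and 3 and 18.9, 16.7 and 13.2 CPM in p42, p43 and p56. Its clone 1 was just above p42, and p56 was its lowest library. The lower genes were the receptor genes Fgfr2 and Fgfr3 and the gene Il17rd (log2 fold change -0.56, -1.02 and -0.20), none of them called. Fgfr2 (3.04 ± 0.523 CPM in ko, 4.50 ± 0.426 CPM in wild type) and Fgfr3 (1.84 ± 0.742 and 3.75 ± 0.636 CPM) were low. Il17rd lies on chromosome 14, where p56 stood apart. In Il17rd p56 was the highest library, with 68.3 CPM beside 55.3 and 61.5 CPM in p42 and p43. The called genes Etv1 and Egr1 both encode transcription factors that Erk can induce. Etv1, the third member of the ETS subfamily of Etv4 and Etv5 (chr12:38780082-38870483, plus strand), reached 25.04, 29.5 and 35.9 CPM in clones 1, 2 and 3 and 12.0, 10.7 and 14.6 CPM in p42, p43 and p56. It rose from 12.4 ± 1.97 to 30.2 ± 5.48 CPM, that is 2.43-fold (edgeR log2 fold change 1.28, SE 0.15, adjusted p 4.8e-04), and was called under each of the 16 alternatives (highest adjusted p 0.0068). Egr1, an immediate early zinc-finger factor, reached 9.42, 9.98 and 10.3 CPM in the clones and 5.29, 5.32 and 6.41 CPM in the cultures. It rose 1.75-fold (edgeR log2 fold change 0.81, SE 0.14, adjusted p 0.0087), close to the threshold, and its call was lost with library-size scaling (adjusted p 0.0109) and without any 1 of clone 1, clone 2, clone 3, p42 or p43 (adjusted p 0.0244 to 0.0655). On the scale of CPM per kb of exon, Etv1 remained the lowest of the 3 ETS genes, with 4.19 in ko beside 62.7 for Etv5 and 73.9 for Etv4. In wild type the order was Etv4 (79.5), Etv5 (43.8) and Etv1 (1.73).

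The remaining lists held 1 call. Their counts at an unadjusted p under 0.05 stand beside 14.3% of all tested genes in edgeR. Of the other formative and primed genes, 8 of 13 were tested and Grhl2, an epithelial transcription factor that is active in the formative state, was called. It reached 37.0, 39.3 and 40.7 CPM in the clones and 26.2, 25.4 and 27.5 CPM in the cultures, a 1.48-fold rise (edgeR log2 fold change 0.56, SE 0.08, adjusted p 0.0028). The call was lost without clone 2, clone 3, p42 or p43 (adjusted p 0.0143 to 0.0300). Of 15 other LIF pathway genes none was called by edgeR, DESeq2 or limma-voom and 4 had an unadjusted p under 0.05. The smallest adjusted p was that of Jak1, the kinase at the LIF receptor, with 38.1 ± 2.64 CPM in ko and 48.2 ± 1.18 CPM in wild type (edgeR log2 fold change -0.34, SE 0.08, adjusted p 0.0435). Of 17 other Nodal and activin genes 14 were tested, none was called by the 3 tools and 3 had an unadjusted p under 0.05. The smallest adjusted p there was that of Pcsk6, a protease that processes Nodal (log2 fold change -0.30, edgeR adjusted p 0.178), and Acvr1c, Gdf1 and Inhba were at 0 in every library. Of 23 other pluripotency factors none was called by the 3 tools and 3 had an unadjusted p under 0.05, with Klf9 at the top (163 ± 15.3 CPM in ko, 131 ± 10.0 CPM in wild type, edgeR log2 fold change 0.31, SE 0.08, adjusted p 0.0740).

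Few reads of these genes lay on the opposite strand. They made up 0.111% to 0.165% of the reads of the 44 genes in each library, whereas the share was 1.21% to 1.27% over all genes.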

How the data were processed

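RNA of ES cells was sequenced from 3 Morc3 ko clones and 3 wild-type cultures. Per the labels, total RNA was treated with DNase and depleted of ribosomal RNA, and directional libraries were made. Per the study's methods, reads were paired-end of 50 bp. The authors mapped them with STAR to mm10 and counted pairs per gene; the gene annotation is not given in the sources used here. The deposited files hold raw counts per gene without normalization, for both strands together and for each strand. The sense-strand counts were used, since they held 10740618 to 14123131 gene counts per library beside 136615 to 172743 on the opposite strand. STAR counts only pairs that map to 1 place and overlap 1 gene. The first 4 lines of each file (unmapped 6.87% to 7.82%, multimapping 16.3% to 17.4%, no gene 11.2% to 13.1%, ambiguous 0.469% to 0.495% of reads) stayed out of library sizes and tests.

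CPM were calculated here from those deposited counts after TMM scaling. Differences were tested with edgeR 4.0.16 in R 4.3.3 (quasi-likelihood test, TMM, filterByExpr with a minimum count of 10 and total of 15, group as the only term, prior count 0.125), two-sided, with Benjamini-Hochberg adjustment over 12222 genes and the study's threshold of 0.01. The SE is the size of the log2 fold change divided by the square root of F. Alternatives were DESeq2 1.42.0, limma-voom (limma 3.58.1), other normalizations, filters, strand and threshold, no chromosome 14, and each library left out. Motifs and near copies (BLAST+ 2.17.0, at least 95% identity over 200 bp, GENCODE transcripts) were searched in the reference. Exon lengths came from GENCODE and positions from RefSeq on GRCm38.p6 (22542 rows matched by symbol, 1372 by an older symbol, 140 not matched).

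The members and lists were chosen with earlier results of these data known, so no count over them is independent support. Named were all 44 genes, Morc3, Actb and Hprt, and in every other list each called gene or, with none called, the tested gene with the smallest adjusted p. Intervals cover the spread between these libraries only.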

Additional observations from a re-analysis of the deposited data

How the results depend on the processing

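Of the 44 genes, 40 of the 43 tested were called under no setting and 3 (Etv5, Dppa5a and Otx2) under at least 1. Etv5 was called in each of 16 alternatives. The number called was 2 with DESeq2, 2 without a filter on low counts and 2 at a threshold of 0.05, Dppa5a being the second gene each time. Leaving out 1 library gave 1 to 3 genes, the 3 (Etv5, Dppa5a and Otx2) without p56. The estimate kept its sign under all alternatives in 32 genes and changed it in 11 that were never called. The median log2 fold change of the genes was 0.0373 in the main fit and 0.0146 with library-size scaling. That move was larger than its SD between libraries, 0.0162. The 3 other pathway genes called became 1 (Etv1) without clone 2, clone 3, p42 or p43, and 8 without p56 (5 higher and 3 lower). Over all genes, 254 were called with DESeq2, 286 without a filter and 331 at a threshold of 0.05, and leaving out 1 library gave 72 to 385, with 385 without p56 and 72 to 117 without any other library; fewer samples enter these fits. In the robust fit Morc3 had an adjusted p of 0.0184; the cause was not tested. No paired analysis was possible because no replicate number in the labels ties a culture to a clone. At 8 to 17 counts per library the interval of Zic2 is wide, and Fgf5 was too low to test.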
